A study of Drosophila melanogaster with 72 samples.

Results

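Skeletal muscle of 1-week-old Drosophila melanogaster of strain O3 was compared with that of 1-week-old flies of strain B3. Each strain had 3 RNA sequencing libraries at this age, so the comparison used 6 of the 72 libraries of the series. They were chosen by the strain and age in the labels and by nothing measured. O3 is a strain with delayed aging, and B3 is labelled as the parental strain. Other libraries of the series hold the same strains at 6 weeks, a second delayed-aging strain (O1) and a day course at 4 times of day. The labels name no transgene, deletion or treatment for O3 or B3. They give no sex, no number of pooled flies and no hour of harvest for the 1-week flies. Nothing says whether libraries of a strain came from separate flies or cultures, so the tests set strain differences against a spread among libraries that may be technical only.

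Fly muscle contracts through sarcomeres, in which myosin thick filaments slide along actin thin filaments, and flight muscle is among the tissues richest in mitochondria. Muscle is also a source of secreted peptides and growth factors and keeps a circadian clock of its own. In that clock the proteins of Clk and cyc switch on per and tim, whose products return to the nucleus and block them. The fly's defence against microbes runs through the Toll and Imd pathways, which switch on antimicrobial peptides, while the JAK-STAT pathway switches on stress peptides such as the Turandots.

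Levels are given as CPM (counts-per-million of the scaled library total), in the order of libraries 1, 2 and 3. Differences are log2 values, O3 minus B3, with a standard error (SE), and a call means an adjusted p below 0.05 in edgeR's quasi-likelihood F-test over 12445 genes, with no threshold on the fold. The O3 libraries held 27721162, 29754883 and 31565082 counts, against 15454403, 16481392 and 23686067 counts in the B3 libraries, so every O3 library was deeper than every B3 library. Thinning the 18 libraries of the age experiment to 1 depth left 3626 of the calls in the same direction. Muscle genes were abundant in both strains. Myosin heavy chain (Mhc) measured 6683, 6548 and 8084 CPM in the O3 libraries, against 8355, 7410 and 7680 CPM in the B3 libraries, and troponin T (up) measured 2772, 2584 and 3197 CPM in the O3 libraries, against 2674, 2406 and 2517 CPM in the B3 libraries. Neither gene was called, though Mhc was called lower without O3 library 3 and up was called higher without O3 library 2.

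RNA of the male reproductive tract was unequal among the libraries and is given here because it touches the counts of genes higher in O3. The 21 testis markers summed to 613, 1209 and 217 CPM in the O3 libraries, against 349, 331 and 304 CPM in the B3 libraries. Most of the B3 sums, and of the sum in O3 library 3, came from bol, which was not called. It measured 289.2, 314.5 and 205.4 CPM in O3 and 285.8, 303.4 and 290.2 CPM in B3, so the sums understate how unequal the other testis markers were. The 26 accessory gland markers summed to 1961, 3098 and 1114 CPM in O3 and 913, 1094 and 1074 CPM in B3, with Acp95EF at 0 in all 6 libraries. O3 libraries 1 and 2 were thus above the third in both lists, and the third O3 library was below the B3 libraries for testis. The accessory gland sums include Est-6, which was not called. It measured 720, 683 and 638 CPM in O3 and 717, 816 and 802 CPM in B3. For 17 of the 23 accessory gland markers tested every O3 library, the third included, was above every B3 library, against 20.1% of all genes. Of the 23 accessory gland markers tested, 15 were called higher in O3, against 19.3% among all genes. The count was 5 without O3 library 1, 3 without O3 library 2 and 2 to 4 without 1 of the B3 libraries. The 14 yolk and ovary markers summed to 5.46, 6.86 and 5.74 CPM in O3, against 4.96, 4.83 and 4.17 CPM in B3. Gut markers summed to 5605, 7741 and 8672 CPM in O3 and 5830, 9626 and 7728 CPM in B3, ranges that overlap. In such bulk samples, fewer cells of a type and less RNA per cell cannot be told apart.

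**Figure D1:**
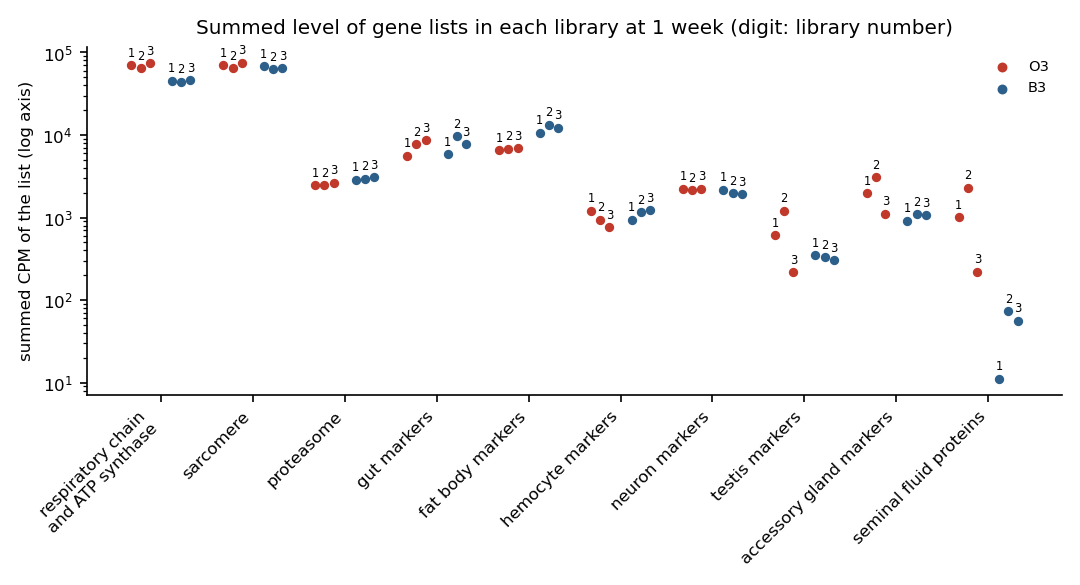
Summed CPM (log axis) of 10 gene lists in the 3 O3 libraries (red) and 3 B3 libraries (blue) at 1 week, with the library number above each point. Respiratory chain sums are higher in O3, fat body marker sums are lower in O3, and seminal fluid genes peak in O3 library 2 at 2291 CPM.

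The strains differed widely at 1 week. Of 12445 genes tested, 4475 (36.0%) were called, 2398 higher in O3 (19.3%) and 2077 lower in O3 (16.7%), and 6338 had an unadjusted p under 0.05. Most differences were modest in size, with a median absolute log2 difference of 0.53 among the called genes. A difference of 2-fold or more was called for 1053 genes higher in O3 and 314 lower in O3. The 3 O3 libraries lay entirely above the 3 B3 libraries for 2498 genes (20.1%) and entirely below them for 2902 (23.3%). The number called was 2957 without O3 library 2, 2937 without B3 library 2 and 2706 without B3 library 3, each under the full count by over 1.5 times. Genes called higher numbered 1413, 1302 and 1172 in those 3 fits. With both O3 libraries rich in testis RNA left out, 1806 genes were called, 1092 of them higher, where the lone O3 library was assumed to vary like the other groups. The share of calls that were higher in O3 was 53.6%, but 37.2% when the spread was estimated from the 6 libraries alone and 43.3% without B3 library 3, so a tilt towards higher or lower genes was not a stable result. The median log2 difference over all genes was 0.06. Called genes lay on all large chromosome arms in similar shares: 35.9% of genes tested on X, 36.9% on 2L, 35.5% on 2R, 35.0% on 3L and 36.3% on 3R. On the small chromosome 4 the share was 29.1%.

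**Figure D2:**
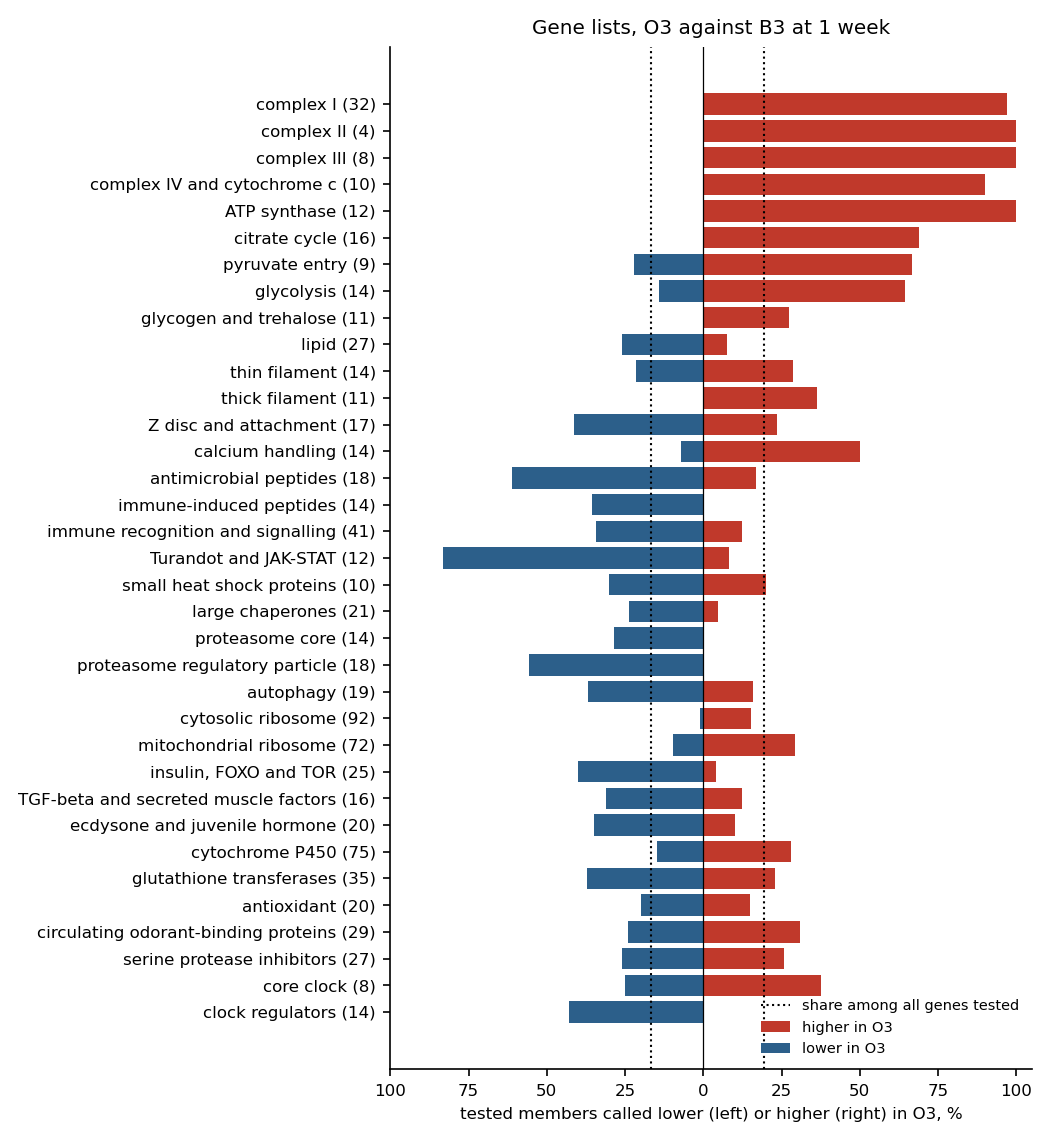
Share of the tested members of 35 gene lists called lower (blue, left) or higher (red, right) in O3 at 1 week, with the number tested in brackets and dotted lines at the shares over all genes, 16.7% and 19.3%. The complexes of the respiratory chain and the ATP synthase reach furthest to the right, and of the lists drawn Turandot and JAK-STAT genes reach furthest to the left. The STING-regulated and antiviral list, put together after the values were seen and with 9 of 10 lower, is not drawn.

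Genes of mitochondrial energy production were higher in O3 across all 5 complexes. Of 66 nuclear genes of the respiratory chain and the ATP synthase, 64 were called higher and 0 lower, against 19.3% called higher among all genes. Their median log2 difference was 0.57. Summed over the list, the level was 70720, 65170 and 74030 CPM in the O3 libraries, against 45580, 44410 and 45870 CPM in the B3 libraries. Between 63 and 65 members were called higher with any 1 library left out, and 63 with both testis-rich O3 libraries left out. The genes encoded in mitochondrial DNA held 0 counts in all libraries and were not measured. Sarcomere genes, the main product of muscle, summed to 69970, 65120 and 75010 CPM in O3 and 67660, 63290 and 64440 CPM in B3.

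Complex I, which takes electrons from NADH, had 31 of 32 subunit genes higher. Its most changed called subunit was CG15434 (ND-B8), with 170, 166 and 176 CPM in the O3 libraries, against 47.3, 59.4 and 54.5 CPM in the B3 libraries. Its libraries did not overlap between strains, and the log2 difference was 1.67 ± 0.11 (adjusted p = 1.59e-07). The next was CG12859 (ND-B15), with a log2 difference of 0.92 ± 0.061, and the catalytic subunit ND75 measured 1576, 1522 and 1745 CPM in the O3 libraries, against 1122, 1130 and 1141 CPM in the B3 libraries (log2 0.51 ± 0.077). The exception was CG6914 (ND-B14.5AL), a gene of low level with 2.69, 7.03 and 0 CPM in the O3 libraries, against 0.469, 0.516 and 0.0887 CPM in the B3 libraries, which overlapped between strains and was called higher without O3 library 3. Complex II, which feeds electrons from succinate, had 4 of 4 genes higher, among them its flavoprotein SdhA with 2962, 2851 and 3092 CPM in the O3 libraries, against 1943, 1971 and 1947 CPM in the B3 libraries (log2 0.60 ± 0.064). Complex III had 8 of 8 higher, including the iron-sulphur subunit RFeSP (log2 0.73 ± 0.069). Its low-level member CG30354 (UQCR-11L), at 2.84, 4.87 and 1.19 CPM in O3 and 1.27, 1.10 and 0.754 CPM in B3, lost its call without O3 libraries 1 or 2 or B3 libraries 1, 2 or 3, 1 at a time (adjusted p = 0.0618 to 0.203).

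Cytochrome c, the carrier that brings electrons to complex IV, is encoded in muscle by Cyt-c-p, which measured 2016, 1840 and 2092 CPM in the O3 libraries, against 1142, 997 and 967 CPM in the B3 libraries. The strains did not overlap and the log2 difference was 0.94 ± 0.081 (adjusted p = 2.25e-06). Of the complex IV list, which includes cytochrome c, 9 of 10 genes were higher, and the remaining one, CG9603 (COX7A), had 120, 114 and 134 CPM in the O3 libraries, against 118, 118 and 114 CPM in the B3 libraries. All 12 ATP synthase genes tested were higher. The catalytic beta subunit (ATPsyn-beta) measured 8983, 7859 and 9066 CPM in the O3 libraries, against 5487, 5159 and 5447 CPM in the B3 libraries, with no overlap (log2 0.69 ± 0.079, adjusted p = 2.37e-05). The alpha subunit blw had a log2 difference of 0.80 ± 0.077 and the membrane ring subunit CG1746 (ATPsynC) one of 0.89 ± 0.082. The differences of the 12 ATP synthase genes ran from 0.55 to 0.89.

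**Figure D3:**
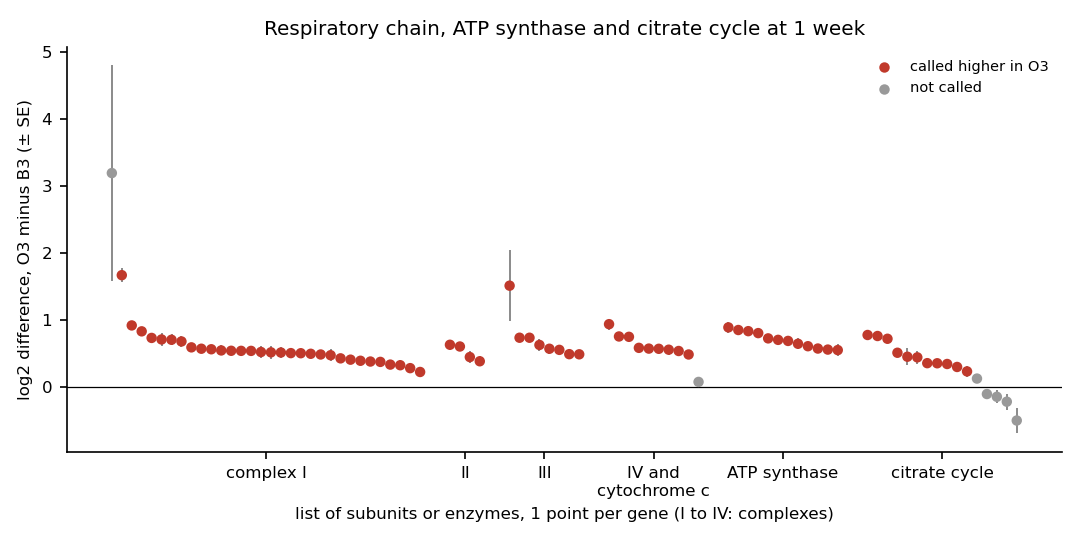
Log2 difference, O3 minus B3, with SE, of each tested gene of the respiratory complexes, the ATP synthase and the citrate cycle at 1 week. Called genes (red) lie between 0.22 and 1.67, and CG6914, the first and highest point of complex I, has a wide SE and was not called.

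Genes that supply fuel to mitochondria were higher in part. The citrate cycle had 11 of 16 genes higher and 0 lower, against 19.3% higher and 16.7% lower among all genes. Every O3 library was above every B3 library for 12 of these genes and below for 3, against 20.1% and 23.3% of all genes. Mitochondrial aconitase (Acon), which converts citrate to isocitrate, measured 7860, 7339 and 8157 CPM in the O3 libraries, against 4471, 4648 and 4525 CPM in the B3 libraries, with no overlap (log2 0.78 ± 0.075, adjusted p = 5.57e-06). Malate dehydrogenase (Mdh2) and the isocitrate dehydrogenase subunit CG5028 (Idh3g) had log2 differences of 0.76 ± 0.075 and 0.72 ± 0.059. The oxoglutarate dehydrogenase gene Nc73EF (Ogdh) measured 6036, 5622 and 6277 CPM in the O3 libraries, against 4376, 4621 and 4212 CPM in the B3 libraries (log2 0.44 ± 0.097). At the entry of pyruvate, the carrier CG14290 (Mpc1) measured 253, 253 and 281 CPM in the O3 libraries, against 147, 136 and 144 CPM in the B3 libraries (log2 0.88 ± 0.051), and the pyruvate dehydrogenase subunit l(1)G0334 (Pdha) had a log2 difference of 0.66 ± 0.055. The phosphatase Pdp, which activates pyruvate dehydrogenase, was lower instead, with 40.1, 39.8 and 43.6 CPM in the O3 libraries, against 54.0, 55.0 and 52.4 CPM in the B3 libraries (log2 -0.39 ± 0.048).

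In glycolysis 9 of 14 genes were higher and 2 lower, against 19.3% higher and 16.7% lower among all genes. The share lower was thus under that of all genes. Enolase (Eno) measured 3274, 2986 and 3292 CPM in the O3 libraries, against 1771, 1832 and 1758 CPM in the B3 libraries (log2 0.83 ± 0.061, adjusted p = 5.10e-07). Phosphofructokinase (Pfk), which commits sugar to the pathway, and pyruvate kinase (PyK), its last step, had log2 differences of 0.72 ± 0.071 and 0.66 ± 0.060. Glycerol-3-phosphate dehydrogenase (Gpdh), which carries electrons from glycolysis towards the mitochondria in flight muscle, measured 1789, 1703 and 2038 CPM in the O3 libraries, against 1097, 900 and 880 CPM in the B3 libraries (log2 0.94 ± 0.11). Aldolase (Ald) went against the rest, with 11290, 10780 and 11750 CPM in the O3 libraries, against 13550, 13990 and 13970 CPM in the B3 libraries and no overlap (log2 -0.30 ± 0.070, adjusted p = 0.00574). Lactate dehydrogenase (ImpL3), which makes lactate from pyruvate, was also lower, with 19.96, 27.1 and 29.2 CPM in the O3 libraries, against 39.0, 36.0 and 35.4 CPM in the B3 libraries (log2 -0.53 ± 0.15), and lost its call without O3 library 1 or B3 library 1, 1 at a time (adjusted p = 0.0534 to 0.0691), which leaves 1 lower gene. Glycogen synthase (CG6904), glycogen phosphorylase (GlyP) and the branching enzyme (CG33138) were higher, at 0.42, 0.58 and 0.58, while the remaining 8 of 11 genes of glycogen and trehalose metabolism were not called. Arginine kinase (Argk), which buffers ATP in muscle, was lower, with 4113, 3987 and 4605 CPM in the O3 libraries, against 5255, 5394 and 5109 CPM in the B3 libraries (log2 -0.31 ± 0.058).

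Genes for mitochondrial upkeep did not share one direction, with 9 of 23 higher and 4 lower, against 19.3% and 16.7% among all genes. The ADP/ATP carrier sesB measured 8971, 7904 and 9112 CPM in the O3 libraries, against 6706, 6378 and 6530 CPM in the B3 libraries (log2 0.41 ± 0.079), and the outer membrane channel porin and the mitochondrial DNA factor TFAM had log2 differences of 0.43 ± 0.051 and 0.44 ± 0.067. The fusion gene Marf was higher at 0.34 ± 0.064 and the fission gene Drp1 lower at -0.31 ± 0.051. The coactivator Spargel, the fly relative of mammalian PGC-1, measured 13.4, 14.97 and 13.4 CPM in the O3 libraries, against 20.2, 22.3 and 21.4 CPM in the B3 libraries, lower in O3 with no overlap (log2 -0.61 ± 0.10). Without B3 library 2 or 3, 6 genes of this list were called higher. Of the 72 mitochondrial ribosomal protein genes, 21 were higher and 7 lower, the lower ones a share under that of all genes. There were 14 higher without B3 library 2 and 4 lower without B3 library 3. Cytosolic ribosomal protein genes had 14 of 92 higher and 1 lower, a share under that of all genes. The count higher was 8 without O3 library 3 and 5, 3 and 5 without B3 libraries 1, 2 and 3.

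Sarcomere genes moved in both directions. Of 42 tested, 12 were higher and 10 lower, with a median log2 difference of 0.03, against 19.3% higher and 16.7% lower among all genes. Without O3 libraries 1 and 2, 12 were higher and 2 lower. Flightin (fln), a myosin filament protein that stiffens flight muscle, measured 851, 755 and 842 CPM in the O3 libraries, against 386, 269 and 313 CPM in the B3 libraries. Every O3 library was above every B3 library and the log2 difference was 1.34 ± 0.14 (adjusted p = 8.71e-06). The Z-disc protein gene CG14168 (Zasp67) measured 35.8, 30.1 and 37.8 CPM in the O3 libraries, against 5.30, 3.16 and 6.74 CPM in the B3 libraries, also with no overlap (log2 2.76 ± 0.29, adjusted p = 1.04e-05). Myofilin (Mf), a thick filament protein, measured 9918, 9001 and 10120 CPM in the O3 libraries, against 7526, 7072 and 6769 CPM in the B3 libraries (log2 0.44 ± 0.10). The flight muscle actin Act88F measured 1082, 951 and 960 CPM in the O3 libraries, against 594, 464 and 729 CPM in the B3 libraries (log2 0.74 ± 0.15), tropomyosin 2 (Tm2) and troponin I (wupA) were higher at 0.36 ± 0.065 and 0.33 ± 0.061, and Act79B, Act57B and myosin light chain 2 (Mlc2) were not called. The titin-like gene sls was higher at 0.21 ± 0.077 but lost its call without O3 libraries 1, 2 or 3 or B3 libraries 1, 2 or 3, 1 at a time (adjusted p = 0.0527 to 0.149).

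The members that were lower belonged to the thin filament list and to that of the Z disc and attachment. The flight muscle troponin C gene TpnC4 measured 1229, 1143 and 1356 CPM in the O3 libraries, against 1716, 1734 and 1882 CPM in the B3 libraries (log2 -0.52 ± 0.099), and the filament end protein tmod had a log2 difference of -0.22 ± 0.056. The capping protein subunits cpb and cpa, which close actin filaments at the Z disc, were lower at -0.55 ± 0.068 and -0.47 ± 0.10. Attachment genes were lower too: talin (rhea) at -0.26 ± 0.062, the integrin subunit if at -0.25 ± 0.062 and the muscle attachment gene kon at -0.59 ± 0.085. Thick filament genes had 4 of 11 higher, and 2 without O3 library 1, O3 library 3, B3 library 2 or B3 library 3. For Z disc and attachment genes, 4 of 17 were higher, 2 without B3 library 1, and 7 lower. Among all genes 19.3% were higher and 16.7% lower.

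Of 14 genes that move calcium 7 were called higher and 1 lower, against 19.3% higher and 16.7% lower among all genes. The count higher was 4 without O3 library 3, B3 library 2 or B3 library 3, and 5 without any 1 of the others. The calcium-binding protein Scp2 measured 84.9, 86.6 and 101 CPM in the O3 libraries, against 62.4, 65.5 and 63.3 CPM in the B3 libraries (log2 0.51 ± 0.10). The store channel olf186-F (Orai) measured 108, 98.4 and 113 CPM in the O3 libraries, against 69.2, 85.5 and 76.1 CPM in the B3 libraries (log2 0.47 ± 0.11) and the calcineurin subunit CanB had a log2 difference of 0.45 ± 0.099. The calcium pump of the muscle reticulum, Ca-P60A (SERCA), measured 12380, 12110 and 14060 CPM in the O3 libraries, against 11170, 11390 and 10930 CPM in the B3 libraries (log2 0.20 ± 0.070). It lost its call without O3 libraries 1 or 3 or B3 libraries 1, 2 or 3, 1 at a time (adjusted p = 0.0511 to 0.154). The catalytic calcineurin gene CanA1 was lower, with 102, 94.2 and 125 CPM in the O3 libraries, against 146, 140 and 139 CPM in the B3 libraries (log2 -0.41 ± 0.11), and lost its call without O3 library 2 (adjusted p = 0.0616).

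At the nerve endings of muscle, the glutamate receptor subunit GluRIIC measured 8.60, 8.91 and 9.21 CPM in the O3 libraries, against 32.5, 31.7 and 29.9 CPM in the B3 libraries. The libraries of a strain were nearly equal and the strains did not overlap (log2 -1.82 ± 0.079, adjusted p = 4.04e-09). The subunit GluRIIA was lower as well, at -0.78 ± 0.11. The presynaptic genes n-syb and VGlut were higher, at 0.37 ± 0.059 and 0.31 ± 0.048, so 2 of 15 genes of this list were higher, 4 without B3 library 1, and 2 lower, both under the shares of all genes (19.3% higher and 16.7% lower) with all libraries in. Neuron markers had 5 of 12 higher, 2 without B3 library 2 or 3, and summed to 2227, 2156 and 2229 CPM in O3 and 2167, 1977 and 1926 CPM in B3.

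Antimicrobial peptide genes were mostly lower in O3. Of 18 tested, 11 were lower and 3 higher, with a median log2 difference of -2.78, against 16.7% lower and a median of 0.06 over all genes. Metchnikowin (Mtk), active against fungi and some bacteria, measured 12.1, 7.52 and 57.5 CPM in the O3 libraries, against 633, 247 and 424 CPM in the B3 libraries. Drosocin (Dro), an Imd target, measured 9.32, 5.33 and 21.4 CPM in the O3 libraries, against 299, 108 and 126 CPM in the B3 libraries. Diptericin (Dpt), another Imd target, measured 4.47, 1.15 and 24.8 CPM in the O3 libraries, against 404, 82.4 and 103 CPM in the B3 libraries. In each case every O3 library was below every B3 library, with the third O3 library the highest of its strain and B3 library 1 the highest of its own. The log2 differences were -4.08 ± 0.67, -3.88 ± 0.68 and -4.27 ± 1.1, with adjusted p-values of 0.000461, 0.000729 and 0.0106. The attacins AttA, AttB and AttC were lower at -2.98 ± 0.73, -2.92 ± 0.70 and -2.81 ± 0.75, and the Drosomycin-like gene dro2 (Drsl2) at -4.20 ± 0.93. Cecropin genes measured low in both strains, CecB at 0.189, 0.174 and 0.770 CPM in O3 and 4.16, 3.93 and 2.13 CPM in B3 (log2 -3.15 ± 0.62). The number lower stayed at 10 to 14 with any 1 library left out and was 1 without O3 libraries 1 and 2.

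The 3 antimicrobial genes that were higher belong to the Drosomycin group. Drosomycin itself (Drs), the antifungal peptide driven by Toll, measured 159, 149 and 111 CPM in the O3 libraries, against 90.04, 62.9 and 62.1 CPM in the B3 libraries (log2 0.97 ± 0.23, adjusted p = 0.00625). The related dro4 (Drsl4) measured 269, 239 and 268 CPM in the O3 libraries, against 64.1, 75.4 and 61.2 CPM in the B3 libraries (log2 1.95 ± 0.12). The related dro5 (Drsl5) measured 249, 212 and 300 CPM in the O3 libraries, against 85.4, 89.6 and 85.3 CPM in the B3 libraries (log2 1.55 ± 0.16). None of the 3 overlapped between strains. Of the 14 immune-induced peptides tested, mostly the short Bomanins that Toll switches on, 5 were lower and 0 higher. Among all genes 16.7% were lower and 19.3% higher. IM1 (BomS1) measured 49.2, 56.8 and 67.8 CPM in the O3 libraries, against 152, 142 and 134 CPM in the B3 libraries (log2 -1.29 ± 0.23), and IM2 (BomS2) and CG16836 (BomT2) were lower at -1.04 ± 0.22 and -1.10 ± 0.18. The number of these peptides lower was 3 without O3 library 1, O3 library 2, B3 library 1 or B3 library 3, and 8 without O3 library 3. Lysozyme genes were split as well: LysP measured 571, 481 and 511 CPM in the O3 libraries, against 106, 88.97 and 83.7 CPM in the B3 libraries (log2 2.49 ± 0.15), and LysX measured 3.79, 6.33 and 5.92 CPM in the O3 libraries, against 96.3, 68.5 and 65.2 CPM in the B3 libraries (log2 -3.84 ± 0.84). Reads of such near-identical families may have been shared among copies, which makes single members uncertain.

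Upstream genes of defence were lower more often than higher, 14 against 5 of 41. Among all genes 16.7% were lower and 19.3% higher. The receptor PGRP-SA, which detects Gram-positive bacteria for Toll, measured 9.24, 8.32 and 10.1 CPM in the O3 libraries, against 26.8, 27.0 and 28.6 CPM in the B3 libraries (log2 -1.58 ± 0.21). PGRP-SB1, an enzyme that cuts bacterial cell wall, measured 59.3, 57.5 and 120 CPM in the O3 libraries, against 327, 208 and 236 CPM in the B3 libraries (log2 -1.70 ± 0.34). Relish (Rel), the NF-kappaB factor of the Imd pathway, measured 161, 162 and 175 CPM in the O3 libraries, against 246, 305 and 267 CPM in the B3 libraries (log2 -0.71 ± 0.11, adjusted p = 0.000245). Its kinase subunits key and ird5 were lower at -0.72 ± 0.078 and -0.58 ± 0.076, while the adaptor imd was higher at 0.60 ± 0.077. On the Toll side, the receptor Tl, its factor dl and the inhibitor cact were lower at -0.39 ± 0.062, -0.38 ± 0.058 and -0.34 ± 0.090, and the activating protease SPE was higher at 0.47 ± 0.11. The thioester protein TepII was lower, with 243, 230 and 265 CPM in the O3 libraries, against 466, 483 and 525 CPM in the B3 libraries (log2 -0.997 ± 0.13). Without B3 library 2, 3 genes of this list were higher, and without O3 library 3, 20 were lower.

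Turandot and JAK-STAT genes were lower in O3 in 10 of 12 cases, against 16.7% lower among all genes. TotA, a secreted stress peptide, measured 154, 139 and 258 CPM in the O3 libraries, against 1905, 1893 and 1577 CPM in the B3 libraries. TotC, its neighbour on chromosome arm 3R, measured 27.9, 15.1 and 51.5 CPM in the O3 libraries, against 854, 833 and 754 CPM in the B3 libraries. TotM measured 5.49, 4.35 and 8.37 CPM in the O3 libraries, against 326, 115 and 99.97 CPM in the B3 libraries, with B3 library 1 above the other 2 of its strain. None overlapped between strains, and the log2 differences were -3.29 ± 0.57, -4.69 ± 0.94 and -4.89 ± 1.1. The ligands upd2 and upd3 were low in both strains, upd3 at 0.720, 0.870 and 0.805 CPM in O3 and 5.63, 4.64 and 4.52 CPM in B3 (log2 -2.62 ± 0.55). Socs36E, a target and inhibitor of the pathway, measured 30.1, 29.6 and 38.1 CPM in the O3 libraries, against 62.4, 90.6 and 71.8 CPM in the B3 libraries (log2 -1.20 ± 0.14, adjusted p = 2.78e-05), and the receptor dome was lower at -0.39 ± 0.068. The one gene higher was the ligand os (upd1), at 0.455, 1.95 and 0.0350 CPM in O3 and 0, 0.129 and 0.0444 CPM in B3, which overlapped and lost its call without O3 library 2 or B3 libraries 1 or 3, 1 at a time (adjusted p = 0.0832 to 0.218). Without O3 libraries 1 and 2, 2 genes were lower.

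A further list, added after its members' values had been seen, holds genes regulated by STING, the sensor of cyclic dinucleotides, and antiviral genes. Of its 10 members 9 were lower in O3, against 16.7% lower among all genes. CG1667 (Sting) measured 18.1, 16.5 and 19.2 CPM in the O3 libraries, against 92.7, 74.1 and 93.7 CPM in the B3 libraries (log2 -2.27 ± 0.20, adjusted p = 2.75e-06). CG33926 (Srg3) measured 4.58, 4.59 and 6.69 CPM in the O3 libraries, against 252, 213 and 263 CPM in the B3 libraries (log2 -5.52 ± 0.24, adjusted p = 4.42e-09). CG42825 (Srg2) measured 29.6, 13.1 and 21.8 CPM in the O3 libraries, against 256, 200 and 263 CPM in the B3 libraries (log2 -3.48 ± 0.63). Expression of all 3 was lower in every O3 library than in any B3 library. The RNA interference genes AGO2 and Dcr-2 and the antiviral peptide gene Vago were lower at -0.63 ± 0.049, -0.54 ± 0.14 and -1.06 ± 0.20, and r2d2 was not called. The count stayed at 9 with any 1 library left out and was 5 without O3 libraries 1 and 2.

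**Figure D4:**
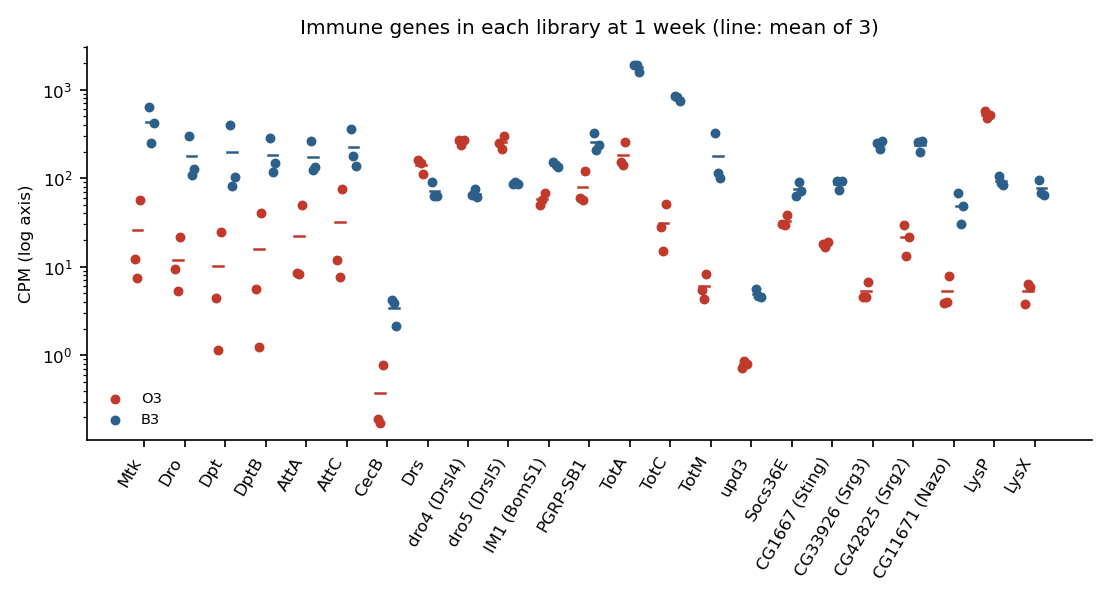
CPM on a log axis of 23 immune genes in the 3 O3 libraries (red, left) and the 3 B3 libraries (blue, right) at 1 week, with a line at each mean. Most genes lie lower in O3, while Drs, dro4, dro5 and LysP lie higher.

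Fat body is the tissue that makes most circulating immune and storage proteins. Of 13 fat body markers 7 were lower in O3 and 3 higher, and the list summed to 6526, 6846 and 6914 CPM in O3, against 10710, 13320 and 12240 CPM in B3. The storage protein gene Lsp1beta measured 314, 388 and 217 CPM in the O3 libraries, against 2070, 3313 and 2451 CPM in the B3 libraries (log2 -3.09 ± 0.52). The lipoprotein gene Rfabg (apolpp) measured 3633, 3474 and 3213 CPM in the O3 libraries, against 6035, 6319 and 6769 CPM in the B3 libraries (log2 -0.89 ± 0.14, adjusted p = 0.000313). The maltase Mal-B1 was higher, with 425, 344 and 379 CPM in the O3 libraries, against 86.2, 115 and 122 CPM in the B3 libraries (log2 1.83 ± 0.19), and so was takeout (to), of a family of secreted hormone-binding-like proteins (log2 1.47 ± 0.38). Hemocyte markers had 3 of 11 lower, 1 without O3 library 2 or B3 library 3, against 16.7% lower among all genes. They summed to 1209, 938 and 764 CPM in O3 and 938, 1163 and 1231 CPM in B3, which overlap. The part of fat body or blood cell RNA in the immune and lipid differences was not tested.

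Lipid genes had 7 of 27 lower and 2 higher, 1 without B3 library 3, against 16.7% lower and 19.3% higher among all genes. The fatty acid elongase Baldspot measured 126, 128 and 133 CPM in the O3 libraries, against 210, 198 and 196 CPM in the B3 libraries (log2 -0.64 ± 0.15), and the triglyceride synthesis gene mdy was lower at -0.49 ± 0.088. The lipase brummer (bmm) measured 113, 97.3 and 124 CPM in the O3 libraries, against 157, 239 and 170 CPM in the B3 libraries (log2 -0.76 ± 0.20) and the lipid droplet protein Lsd-1 measured 247, 210 and 222 CPM in the O3 libraries, against 304, 460 and 367 CPM in the B3 libraries (log2 -0.73 ± 0.20). Neither held its call in every smaller fit: bmm lost it without B3 library 2 (adjusted p = 0.0599) and Lsd-1 without B3 library 2 (adjusted p = 0.0646). In all, 4 lipid genes were lower without O3 library 2 and 2 without B3 library 2.

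The core clock differed in 3 higher and 2 lower of 8 genes, against 19.3% higher and 16.7% lower among all genes. Timeless (tim) measured 475, 390 and 571 CPM in the O3 libraries, against 294, 227 and 180 CPM in the B3 libraries. Its O3 libraries lay above its B3 libraries, which spread widely (log2 1.03 ± 0.18, adjusted p = 0.000808). Period (per), its partner, measured 45.8, 45.9 and 60.9 CPM in the O3 libraries, against 36.9, 33.1 and 29.4 CPM in the B3 libraries, also without overlap (log2 0.62 ± 0.13, adjusted p = 0.00302). Clockwork orange (cwo), a repressor in the same loop, measured 186, 183 and 167 CPM in the O3 libraries, against 140, 150 and 133 CPM in the B3 libraries (log2 0.34 ± 0.076). Cycle (cyc), an activator, measured 24.4, 22.1 and 23.5 CPM in the O3 libraries, against 27.8, 32.8 and 31.5 CPM in the B3 libraries (log2 -0.40 ± 0.075). Clock (Clk), its partner, measured 21.2, 27.7 and 18.0 CPM in the O3 libraries, against 26.6, 38.5 and 33.1 CPM in the B3 libraries, with overlap (log2 -0.55 ± 0.20), and lost its call without O3 libraries 1 or 3 or B3 libraries 2 or 3, 1 at a time (adjusted p = 0.104 to 0.167). The remaining members were not called: the activator Pdp1 had a log2 difference of 0.14 ± 0.065, the repressor vri one of 0.26 ± 0.14 and the light-sensor gene cry one of 0.11 ± 0.086. Of 14 genes for kinases, phosphatases and ubiquitin ligases that act on clock proteins, 6 were lower and 0 higher. The ligase ctrip, which acts on Clk protein, measured 253, 318 and 217 CPM in the O3 libraries, against 421, 444 and 413 CPM in the B3 libraries (log2 -0.70 ± 0.096), and the kinases CkIalpha, sgg and dco were lower at -0.23 ± 0.042, -0.28 ± 0.055 and -0.25 ± 0.059.

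Since tim and per cycle over the day and the 1-week labels give no hour, the same genes were read in separate libraries of both strains taken at ZT0, ZT6, ZT12 and ZT18, hours of the lighting schedule. There tim averaged 830 ± 13.4 CPM in O3 and 654 ± 19.7 CPM in B3 at ZT12 (SD, n = 3 each), and 302 ± 18.6 CPM in O3 and 320 ± 17.6 CPM in B3 at ZT0. The strain difference of tim was called at ZT12 (log2 0.34 ± 0.070) and at ZT18 (0.25 ± 0.079) and not at ZT0 (-0.08 ± 0.070) or ZT6 (-0.11 ± 0.086). Each of those 4 values was below the 1.03 measured at 1 week. For cyc the difference was called at all 4 hours, between -0.33 and -0.21, near the -0.40 at 1 week. For cwo the direction was opposite to that at 1 week, with log2 -0.61 ± 0.10, -0.51 ± 0.12 and -0.54 ± 0.11 called at ZT0, ZT6 and ZT18, and -0.22 ± 0.10 at ZT12 not called. For per the difference was -0.22 ± 0.082 at ZT0, where it was called lower, and it was not called at the other 3 hours. Over all genes, the strains differed at ZT0 in 34.1%, at ZT6 in 31.4%, at ZT12 in 38.0% and at ZT18 in 37.5% of 12295 genes. Whether the 1-week differences of tim, per and cwo come with a difference in hour of harvest was not tested.

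**Figure D5:**
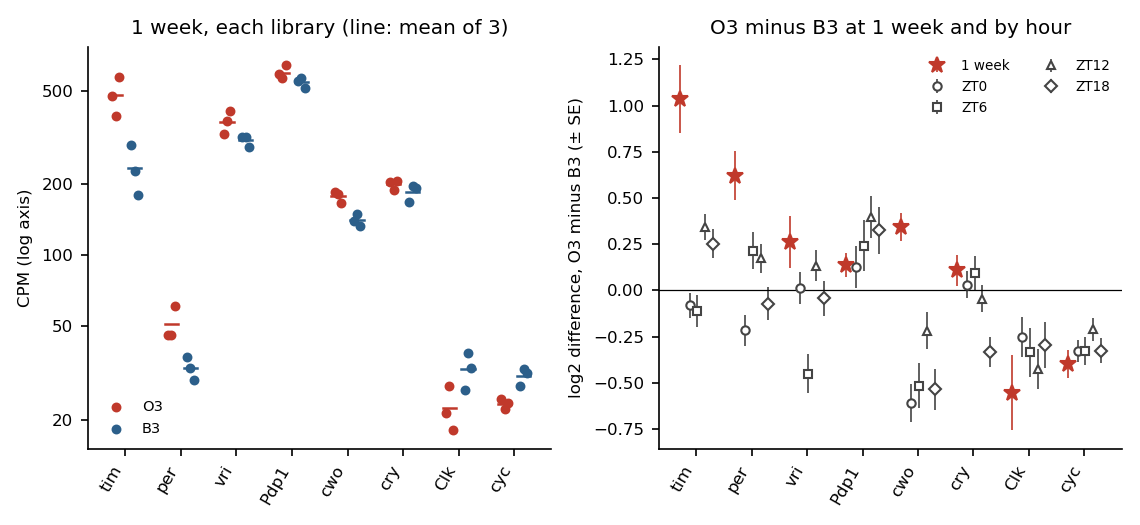
Left, CPM (log axis) of the 8 core clock genes in the O3 (red) and B3 (blue) libraries at 1 week, with a line at each mean. Right, log2 difference O3 minus B3 with SE at 1 week (red stars) and at ZT0, ZT6, ZT12 and ZT18 in the day course, where cyc and Clk are below 0 throughout and cwo is above 0 only at 1 week.

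Proteasome genes leaned lower in O3. Of 32 tested, 14 were lower and 0 higher, against 16.7% lower and 19.3% higher among all genes, and the median log2 difference was -0.22. Rpn1, a scaffold of the regulatory particle that feeds proteins into the core, measured 123, 120 and 135 CPM in the O3 libraries, against 168, 170 and 177 CPM in the B3 libraries (log2 -0.45 ± 0.079, adjusted p = 0.000725). The core subunit Pros35 (Prosalpha6) measured 44.4, 40.7 and 49.1 CPM in the O3 libraries, against 68.7, 71.0 and 76.5 CPM in the B3 libraries (log2 -0.69 ± 0.13), and Rpn3 and the ATPase subunit Tbp-1 (Rpt5) were lower at -0.43 ± 0.094 and -0.36 ± 0.072. The count depended on single libraries: 8 were lower without O3 library 1, 8 without B3 library 2 and 7 without B3 library 3. It was 0 without O3 libraries 1 and 2, and 22 when the spread was estimated from the 6 libraries alone.

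Heat shock genes were found in both directions, against 19.3% higher and 16.7% lower among all genes. Of 10 small chaperones 2 were higher, 1 without B3 library 2 or 3, and 3 lower. The small chaperone Hsp26 measured 61.8, 38.8 and 26.9 CPM in the O3 libraries, against 2.62, 5.74 and 3.73 CPM in the B3 libraries, higher in O3 with no overlap and with O3 library 1 the highest (log2 3.40 ± 0.44, adjusted p = 6.52e-05). The small chaperones CG14207 and Hsp67Bc were lower, CG14207 with 413, 391 and 454 CPM in the O3 libraries, against 599, 654 and 700 CPM in the B3 libraries (log2 -0.63 ± 0.078) and Hsp67Bc at -1.46 ± 0.22. Among 21 large chaperones, 5 were lower and 1 higher, including the reticulum chaperone Hsc70-3 (log2 -0.43 ± 0.074) and the co-chaperone Droj2 (log2 -0.41 ± 0.10). Without O3 library 2, O3 library 3 or B3 library 2, 3 were lower, and without O3 library 2, B3 library 2 or B3 library 3 none was higher. The inducible Hsp70 genes, such as Hsp70Ab with 163, 24.1 and 11.7 CPM in the O3 libraries, against 18.5, 319 and 55.9 CPM in the B3 libraries, were not called, and in this gene the libraries within a strain differed more than the strains did.

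In autophagy, the starting kinase Atg1 stood out with 185, 188 and 203 CPM in the O3 libraries, against 81.3, 83.5 and 82.7 CPM in the B3 libraries. The B3 libraries were nearly equal and the strains did not overlap (log2 1.22 ± 0.059, adjusted p = 1.00e-08). Most other called members were lower, so the list had 3 of 19 higher and 7 lower, against 19.3% and 16.7% among all genes. The membrane protein Atg9 measured 60.01, 57.4 and 67.2 CPM in the O3 libraries, against 81.5, 84.2 and 86.8 CPM in the B3 libraries (log2 -0.45 ± 0.069), and the cargo receptor ref(2)P measured 430, 356 and 407 CPM in the O3 libraries, against 509, 559 and 543 CPM in the B3 libraries (log2 -0.43 ± 0.10). Without B3 library 1 or 3, 1 member was called higher. Of 7 lysosomal alpha-mannosidase genes 1 was lower, and CG6206 and CG5322 were higher, at 0.85 ± 0.12 and 1.22 ± 0.20.

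Growth signalling genes were lower in 10 of 25 cases and higher in 1, against 16.7% lower and 19.3% higher among all genes. Melted (melt), a membrane scaffold that modulates insulin signalling, measured 16.7, 15.4 and 18.7 CPM in the O3 libraries, against 33.7, 31.4 and 35.9 CPM in the B3 libraries (log2 -0.99 ± 0.072, adjusted p = 4.54e-07). The insulin-binding inhibitor ImpL2 measured 128, 101 and 110 CPM in the O3 libraries, against 198, 344 and 202 CPM in the B3 libraries (log2 -1.14 ± 0.24), and Thor, the 4E-BP translation repressor that FOXO induces, measured 314, 355 and 505 CPM in the O3 libraries, against 762, 627 and 731 CPM in the B3 libraries (log2 -0.85 ± 0.19). The kinase S6k and the phosphoinositide kinase subunit Pi3K21B were lower at -0.49 ± 0.084 and -0.59 ± 0.10. The gene higher was Sestrin (Sesn), an inhibitor of TOR, with 407, 350 and 363 CPM in the O3 libraries, against 221, 219 and 220 CPM in the B3 libraries and no overlap (log2 0.76 ± 0.071, adjusted p = 4.32e-06). The number lower was 6 without O3 library 1 or 2. Of TGF-beta and other secreted factors, 5 of 16 were lower, 3 without O3 library 2. The myostatin relative myo measured 174, 157 and 182 CPM in the O3 libraries, against 256, 255.2 and 236 CPM in the B3 libraries (log2 -0.54 ± 0.072) and the ligand dpp was lower at -0.47 ± 0.079.

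Among hormone genes, juvenile hormone esterase (Jhe), which destroys juvenile hormone, measured 5.80, 5.92 and 4.41 CPM in the O3 libraries, against 16.96, 34.5 and 31.9 CPM in the B3 libraries (log2 -2.37 ± 0.46). Kr-h1, a factor that juvenile hormone induces, measured 107, 96.6 and 93.3 CPM in the O3 libraries, against 162, 241 and 183 CPM in the B3 libraries (log2 -0.98 ± 0.24). The epoxide hydrolase Jheh1, a further enzyme of its breakdown, was higher with 123, 133 and 143 CPM in the O3 libraries, against 82.3, 91.0 and 83.8 CPM in the B3 libraries (log2 0.63 ± 0.077), while Jheh2 and Jheh3 were lower at -0.42 ± 0.089 and -0.75 ± 0.16. In all, 7 of 20 were lower and 2 higher, 1 without B3 library 3, against 16.7% lower and 19.3% higher among all genes.

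Detoxification genes were found in both directions, some with large differences. Of 75 cytochrome P450 genes 21 were higher and 11 lower, against 19.3% higher and 16.7% lower among all genes, so the share lower was under that of all genes. Cyp6g1, known for resistance to insecticides such as DDT, measured 1010, 867 and 1264 CPM in the O3 libraries, against 216, 270 and 300 CPM in the B3 libraries (log2 2.00 ± 0.23, adjusted p = 2.11e-05). The mitochondrial P450 Cyp12a5 measured 61.9, 56.6 and 75.5 CPM in the O3 libraries, against 16.7, 15.7 and 17.4 CPM in the B3 libraries (log2 1.96 ± 0.13), and its relative Cyp12c1 was lower, with 37.7, 36.8 and 47.2 CPM in the O3 libraries, against 140, 143 and 144 CPM in the B3 libraries (log2 -1.81 ± 0.11). None of these overlapped. Without B3 library 2, 14 were higher.

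Of 35 glutathione transferase genes 13 were lower and 8 higher, against 16.7% lower and 19.3% higher among all genes. Several Delta class genes were among those lower. GstD1, a much used reporter of oxidative stress signalling, measured 606, 613 and 691 CPM in the O3 libraries, against 1829, 2501 and 2333 CPM in the B3 libraries (log2 -1.80 ± 0.11, adjusted p = 7.49e-08). GstD3 measured 12.6, 14.8 and 11.1 CPM in the O3 libraries, against 121, 184 and 169 CPM in the B3 libraries (log2 -3.62 ± 0.15), and GstD2, GstD9 and GstE1 were lower at -2.64 ± 0.13, -1.46 ± 0.14 and -2.20 ± 0.22. GstS1, a transferase abundant in flight muscle, was higher with 420, 464 and 382 CPM in the O3 libraries, against 304, 250 and 294 CPM in the B3 libraries (log2 0.58 ± 0.085). The number lower was 8 without B3 library 3. Among 20 antioxidant genes 3 were higher and 4 lower, near the shares of all genes, and 2 were lower without O3 library 2 or B3 library 2. Mitochondrial superoxide dismutase (Sod2) measured 448, 407 and 464 CPM in the O3 libraries, against 325, 321 and 344 CPM in the B3 libraries (log2 0.41 ± 0.068). The peroxidase PHGPx measured 452, 427 and 550 CPM in the O3 libraries, against 886, 1074 and 1021 CPM in the B3 libraries (log2 -1.06 ± 0.10), and cnc, the Nrf2-like factor that activates GstD1, was lower at -0.24 ± 0.040.

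Secreted proteins of other families were also found in both directions, against 19.3% higher and 16.7% lower among all genes. Of 27 serpin genes, whose products block proteases of the blood, 7 were lower and 7 higher. Spn88Eb measured 10.99, 12.3 and 12.4 CPM in the O3 libraries, against 71.9, 67.2 and 61.1 CPM in the B3 libraries (log2 -2.49 ± 0.33). Spn27A, which restrains melanization, measured 72.5, 66.4 and 82.5 CPM in the O3 libraries, against 101, 108 and 103 CPM in the B3 libraries (log2 -0.50 ± 0.081), and Spn4 (Spn42Da) was lower at -0.78 ± 0.091. The serpins that were higher peaked in O3 library 1 or 2, like the male tract genes. Their count was 5, 2 and 9 without O3 library 1, 2 or 3, 2, 5 and 1 without B3 library 1, 2 or 3, and 0 without O3 libraries 1 and 2. Of 29 odorant-binding protein genes 9 were higher, 5 without B3 library 3, and 7 lower, 4 without O3 library 1. Obp44a measured 141, 204 and 175 CPM in the O3 libraries, against 65.8, 35.2 and 35.2 CPM in the B3 libraries (log2 1.93 ± 0.28). Obp99b measured 205, 225 and 260 CPM in the O3 libraries, against 599, 828 and 650 CPM in the B3 libraries (log2 -1.59 ± 0.34), so members of this family stood in opposite directions without overlap. Of 14 amylase and maltase genes 2 were higher, Mal-B1 and tobi, of which tobi lost its call without B3 libraries 1 or 3, 1 at a time (adjusted p = 0.0564 to 0.0640).

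Among genes with a mean level of at least 2 log2 CPM and no overlap, the largest fall was that of the long noncoding RNA CR43459, with 23.3, 16.1 and 25.3 CPM in the O3 libraries, against 1590, 1362 and 1457 CPM in the B3 libraries (log2 -6.09 ± 0.21, adjusted p = 1.17e-09). The lectin gene lectin-24A measured 0.606, 0.731 and 0.560 CPM in the O3 libraries, against 39.8, 39.5 and 40.4 CPM in the B3 libraries (log2 -5.97 ± 0.48). The lectin gene lectin-37Da measured 10.6, 6.79 and 13.8 CPM in the O3 libraries, against 308, 224 and 296 CPM in the B3 libraries (log2 -4.73 ± 0.48). In these, levels in O3 were a small part of those in B3, and each O3 library was far below each B3 library. CG32198, CG43085, CG32368 and CG17264 had differences of -5.32 ± 0.45, -5.29 ± 0.33, -4.96 ± 0.45 and -4.64 ± 0.27, and CG6967 (Mov10) one of -4.67 ± 0.77. The remaining falls of the top 15 were CG33926, TotM, TotC, Dpt, Mtk, the lysozyme gene LysC (log2 -4.16 ± 0.80) and CG17192 (log2 -4.84 ± 1.5), whose call was lost without O3 library 1 or B3 library 2, 1 at a time (adjusted p = 0.0706 to 0.0866).

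The 15 largest rises, taken outside the tissue marker lists, were highest in O3 library 2 and next highest in O3 library 1. Of these 15, 7 belong to the seminal fluid list that was added after their values had been seen. All but BG642312 lost their calls without O3 library 2, and likewise without B3 library 1 or 3. An example is Mst57Da, with 164, 400 and 42.1 CPM in the O3 libraries, against 0.536, 10.2 and 7.76 CPM in the B3 libraries (log2 5.02 ± 1.7), whose call was lost without O3 libraries 1 or 2 or B3 libraries 1, 2 or 3, 1 at a time (adjusted p = 0.0571 to 0.106). Mst57Da, Mst57Db and Mst57Dc lie close together on chromosome arm 3R and are known as male accessory gland genes. Genes of the seminal fluid list were called higher in 25 of 31 cases, against 19.3% among all genes. The count was 13 without O3 library 1, 6 without O3 library 2, 5 to 8 without 1 of the B3 libraries and 1 without O3 libraries 1 and 2. The list summed to 1007, 2291 and 220 CPM in O3, against 11.1, 73.2 and 56.1 CPM in B3. The remaining rises are therefore given for genes also called higher over the day course, a choice made after the values were seen. CG9192 measured 34.7, 33.0 and 35.4 CPM in the O3 libraries, against 3.02, 3.03 and 3.24 CPM in the B3 libraries (log2 3.47 ± 0.14, adjusted p = 2.56e-09). Cyp12d1-d, whose reads may be shared with a near-identical neighbour, measured 56.6, 43.3 and 45.3 CPM in the O3 libraries, against 5.498, 9.09 and 8.47 CPM in the B3 libraries (log2 2.65 ± 0.33). The mucin gene Muc30E measured 25.8, 19.2 and 21.4 CPM in the O3 libraries, against 4.63, 3.55 and 2.53 CPM in the B3 libraries (log2 2.64 ± 0.20). For these 3 the strains did not overlap and the third O3 library was no lower than the second. Genes CG11700 and CheA86a had differences of 2.32 ± 0.30 and 2.03 ± 0.20.

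The strain difference was measured again in the day course, in libraries that share none with the 1-week ones and whose age the labels do not give. There 60.7% of 12295 genes were called, 31.3% higher in O3 and 29.4% lower. Of the 4223 genes called at 1 week and tested there, 3267 were called in the same direction and 82 in the opposite one. That is 77.4% of these 1-week calls and 44.9% of the 7272 day-course calls tested at 1 week. The share was 84.4% (1730 of 2050) for genes lower in O3 and 70.7% (1537 of 2173) for genes higher. Of the gene groups, 64 of 65 respiratory and ATP synthase genes were higher (median log2 0.53), 13 of 17 antimicrobial peptides were lower and 31 of 31 proteasome genes were lower. Turandot and JAK-STAT genes were lower in 10 of 11, and insulin and TOR genes in 15 of 25. Citrate cycle genes were higher in 9 of 16 and lower in 2, with a median log2 difference of 0.13. Of seminal fluid genes, 2 of 19 were higher.

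Single genes repeated closely or turned. Atg1 had a day-course difference of 1.27 ± 0.058, fln one of 1.57 ± 0.054, CG14168 one of 3.10 ± 0.18 and CG9192 one of 3.74 ± 0.10. CG15434 stood at 3.28 ± 0.11, above its 1.67 at 1 week. Act88F turned, with -1.31 ± 0.12 against 0.74 at 1 week, and so did cwo, with -0.47 ± 0.055. Sesn differed by -0.05 ± 0.048 and Drs by -0.16 ± 0.20, neither of them called. Sarcomere genes leaned lower there, with 24 of 42 lower and 8 higher.

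At 6 weeks, in other libraries of the age experiment, 40.3% of genes were called between O3 and B3, 20.0% higher in O3 and 20.2% lower. Of the 4475 calls at 1 week, 2335 (52.2%) were called in the same direction at 6 weeks, which is 46.6% of the 6-week calls, and 154 in the opposite direction. The strain difference itself differed between the ages for 2196 genes (17.6%) by the interaction test, which shares the 1-week libraries. Respiratory and ATP synthase genes were higher in 64 of 66 at 6 weeks, with a median of 0.99 against 0.57 at 1 week, and 42 of them passed the interaction test. Proteasome genes were lower in all 32 at 6 weeks (median -0.83), and 24 passed that test. Sarcomere genes were lower in 29 of 42. Antimicrobial peptides were lower in 14 of 18, and Drs was among them at -3.55, against 0.97 at 1 week (interaction -4.52, adjusted p = 5.40e-06). Gut markers were higher in 25 of 32 at 6 weeks, against 3 at 1 week.

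The second delayed-aging strain, O1, was also sequenced at 1 week. Against the same B3 libraries 23.8% of genes were called in O1, and 6.63% of genes were called between O3 and O1. Since these comparisons share libraries with that of O3 and B3, only values are set side by side. CR43459 differed from B3 by -6.09 in O3 and -5.88 in O1, Mtk by -4.08 in O3 and -3.46 in O1, and LysP by 2.49 in O3 and 2.50 in O1. ATPsyn-beta differed by 0.69 in O3 and 0.34 in O1, and its O3 minus O1 difference of 0.34 was called (adjusted p = 0.0196). CG43085 differed by -5.29 in O3 and by -0.59 in O1, which was not called, and O3 minus O1 was -4.70 (adjusted p = 1.94e-06). Muc30E differed by 2.64 in O3 and by 0.06 in O1, not called, and O3 minus O1 was 2.58 (adjusted p = 4.33e-06). For CG33926 the O1 difference was -2.90, and O3 was lower than O1 by a log2 difference of -2.62 (adjusted p = 1.34e-05).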

How the data were processed

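RNA of fly skeletal muscle was extracted with Trizol and sequenced from stranded mRNA libraries, per the labels' protocols. The authors deposited raw read counts per gene, 1 file per library. BWA, STAR and HTSeq and the dm3 genome are named in the submitters' processing notes, without versions or roles. For the counting, annotation and strand setting were not given in the sources used here. In the 6 libraries, rows that name no gene were dropped: reads in no gene came to 24.6% to 27.9% and ambiguous reads to 2.72% to 3.13%. Reads with several matches numbered 0.45 to 0.531 per 100 counted here and 19.8 to 45.4 in the day course, so near-identical genes are uncertain between the 1-week and day-course libraries. Within the day course the strains did not overlap in this, with 24.4 to 29.4 in B3 and 30.8 to 45.4 in O3. Reads in no gene came to 10.2% to 11.6% in B3 and 12.0% to 16.5% in O3 there. The part of this in the day-course strain differences was not tested. Reads in counts are not known to be unique molecules.

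From these counts the 18 libraries of the age experiment were fitted in 1 model with 1 mean per strain and age (edgeR 4.0.16 in R 4.3.3, filterByExpr, TMM scaling, quasi-likelihood F-test, Benjamini-Hochberg adjustment over 12445 genes, 12 residual degrees of freedom). CPM values use the scaled library sizes. Each SE is the log2 difference divided by the square root of F. The 31 day-course libraries were fitted separately. The fit was tested on simulated data. Members and gene lists were chosen with earlier results of these data known. Named genes are the core clock, up to 5 called genes of each list by p-value with further list members as examples, the 15 largest rises and falls among non-overlapping genes outside marker lists with a mean of at least 2 log2 CPM, and the 10 called genes of highest level. Current names in brackets, chromosome arms and gene order come from RefSeq tables of another build, from which no coordinates were taken. Alternatives were DESeq2 1.42.0, its size factors, no filter, the 6 libraries alone, a replicate block, libraries left out, and thinning to equal depth, the last added after the data were seen.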

Additional observations from a re-analysis of the deposited data

Results flagged for a closer look

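Of 63 genes (the core clock, the largest rises and falls, and the called genes of highest level), 25 had a strain difference that itself differed between the ages by the interaction test (edgeR's quasi-likelihood F-test, adjusted over 12445 genes). Of the 885 tested genes of the pathway lists 307 passed it, against 17.6% of all genes, and those outside the 63 are not listed here. Values are log2 differences, O3 minus B3, at 6 weeks and at 1 week, and the change is the first minus the second. The test uses the 1-week libraries, so the 1-week values are no separate evidence. The largest rises and falls were picked by their 1-week differences, which by itself favours a smaller gap at 6 weeks. How many of them passed is therefore not a measure of change with age.

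Of the largest falls, 7 had a smaller gap at 6 weeks. CR43459 stood at -4.69 at 6 weeks and -6.09 at 1 week, a change of 1.40. The STING-regulated gene CG33926 stood at -1.64 and -5.52 (change 3.88) and CG6967 (Mov10) at -0.87 and -4.67 (change 3.80). The changes of CG32198, CG32368, CG17264 and lectin-37Da were 4.66, 3.47, 2.56 and 2.95.

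Of the largest rises also called higher over the day course, some had a smaller gap at 6 weeks. The Z-disc gene CG14168 stood at -0.43 at 6 weeks and 2.76 at 1 week (change -3.20), and Hsp26 at 1.15 and 3.40 (change -2.25). Muc30E, CG9192 and CG11700 changed by -2.14, -1.60 and -1.23. Others had a wider gap at 6 weeks: CG15263 changed by 3.44, Cyp6g1 by 1.27, LysP by 1.08 and CheA86a by 0.99. Clock genes not called at 1 week passed: cry changed by 0.75 (0.86 at 6 weeks and 0.11 at 1 week) and Pdp1 by 0.36 (0.50 and 0.14).

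Of the called genes of highest level, aldolase (Ald) stood at 0.50 at 6 weeks and -0.30 at 1 week (change 0.79) and arginine kinase (Argk) at 0.33 and -0.31 (change 0.64), so both turned direction. The titin-like gene sls stood at -0.71 at 6 weeks and 0.21 at 1 week (change -0.92), also in opposite directions, and Mf at -0.08 and 0.44 (change -0.52). Acon and Nc73EF had a wider gap at 6 weeks, changing by 0.86 and 1.42, and the lipoprotein gene Rfabg a smaller one, changing by 0.60.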

How the results depend on the processing

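With 1 library left out, 2706 to 5725 genes were called, 1172 to 3346 of them higher, and 7 to 14 proteasome genes were lower, against 4475, 2398 and 14 with all libraries. In the 6 libraries alone, 1309 genes were higher, 7 antimicrobial peptides lower and 22 proteasome genes lower. Without O3 libraries 1 and 2 the numbers were 1806 called, 1092 higher, 714 lower, 1589 in the same direction over the day course, 1 antimicrobial peptide, 2 Turandot and JAK-STAT genes and 0 proteasome genes lower. That fit has 1 O3 library, assumed to vary like the other groups. The cause of these shifts was not tested beyond the fewer samples. The respiratory and citrate cycle counts moved by less than 1.5 times under all alternatives run. Of 63 named genes under 13 alternatives none reversed, 126 comparisons lost the call and 2 gained it.

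Whether replicate numbers pair the samples was not settled. Deviations of same-numbered O3 and B3 libraries correlated at 0.299, 0.0803 and 0.522 for numbers 1, 2 and 3. The highest correlation of the same O3 library with a B3 library of another number was 0.146, 0.367 and -0.109. The same number thus correlated more for numbers 1 and 3 and less for number 2. The main fit used no pairing. With a replicate block 3877 genes were called, 1901 higher. DESeq2 called 5618 genes, and 3853 were called in thinned libraries. Depth limits genes near 1 CPM. Over library totals without scaling, a count of 3 was 0.095 to 0.108 CPM in O3 and 0.127 to 0.194 CPM in B3 libraries. These values cover counting error only.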
